A study of Mus musculus with 7 samples.

Results

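The regions described here are the binding events of 3 transcription factors on mouse chromosome 14 below position 115000000 (build mm9). They number 3370 of 137595 listed events: 1738 of 64579 for FRA2, 1084 of 46583 for JUND and 548 of 26433 for SOX2. They were taken by position alone, but the chromosome was picked because its medians of Q111 over Q7 reads were the highest. Every value of that contrast is therefore a description, given without a test and drawn on for nothing else.

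Chromatin immunoprecipitation with sequencing (ChIP-seq) was done in STHdhQ111 cells for FRA2 and JUND and in STHdhQ7 cells for FRA2, JUND and SOX2, with immunoglobulin G (IgG) as the control antibody in each line. STHdhQ111 cells (genotype HdhQ111/Q111, here Q111) carry huntingtin with an expanded glutamine tract on both alleles, and STHdhQ7 cells (HdhQ7/Q7, here Q7) carry the short tract. Both lines derive from striatum of 129SvEv/CD1 embryos at day 14, had fewer than 15 passages, and were grown at 33 °C and held at 39 °C for 2 days to stop division. Each genotype is represented by 1 line and each antibody and line by 1 sample in which replicates 1 and 2 were pooled, so there is no spread between replicates, differences between lines cannot be told apart from differences between genotypes, and the intervals given cover counting error, or which events happened to be sampled, and nothing else.

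AP-1 is a dimer of a FOS-family and a JUN-family protein that binds promoters and distal enhancers. FRA2 (gene Fosl2) belongs to the FOS family and pairs with JUN proteins, whereas JUND can also pair with other JUN proteins. SOX2 is a factor of neural progenitors that binds DNA through its high-mobility-group domain. Reads recovered at a site depend on the bound protein and on how much DNA of that site the cells hold, and control reads share the second of these but not the first. Mouse chromosome 14 carries, among others, genes for the neurofilament subunits (Nefl, Nefm), the signalling protein Bmp4, the head and forebrain factor Otx2 and the growth factor Nrg3. No event is assigned to a gene here.

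FRA2 reads over the chromosome 14 events came to 92346.9 in Q111 and 72224.3 in Q7. These were 2.64% of all FRA2 reads in events in Q111 and 2.16% in Q7. For JUND they came to 37980.6 reads in Q111 (2.36% of the total) and 31589.4 in Q7 (1.90%). In both tables the share of reads on this chromosome was thus larger in the Q111 library. Control reads at the same events did not show this difference: the FRA2 table had 2.09% of its control reads here in Q111 and 2.07% in Q7, and the JUND table had 1.74% in Q111 and 1.78% in Q7.

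Mean reads per event, IP and control, were lower in the region than elsewhere except for JUND IP reads in Q111. A FRA2 event of the region held a mean of 53.1 reads in Q111 and 41.6 in Q7, whereas an event of the other chromosomes held 54.2 in Q111 and 52.0 in Q7. A JUND event of the region held 35.0 reads in Q111 and 29.1 in Q7, against 34.6 in Q111 and 35.8 in Q7 elsewhere. Control reads per event were lower in the region in both lines: in the FRA2 table they averaged 4.43 in the region and 5.75 elsewhere in Q111, and 3.31 and 4.33 in Q7. In the JUND table they averaged 5.36 and 7.23 in Q111, and 3.31 and 4.34 in Q7. SOX2, measured in Q7, had a mean of 44.4 reads per event in the region and 45.2 elsewhere.

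Folds were computed per event as Q111 over Q7 reads plus 0.5, scaled so that the median event marked present in both lines had a log2 fold of 0. The median FRA2 event of the region had 34 reads in Q111 and 26.8 in Q7. The median log2 fold was 0.37 (95% interval of the median 0.30 to 0.45), against -0.01 over the other chromosomes. For JUND the median was 28 reads per event in Q111 and 24 in Q7. The median log2 fold of JUND was 0.25 (0.15 to 0.34), against -0.14 elsewhere. These intervals treat events as independent, which neighbouring events are not, and so are too narrow.

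Events at least 2-fold higher in Q111 made up 31.7% of the region for FRA2 (551 of 1738), where 24.2% of all FRA2 events passed the same limit. Events at least 2-fold lower made up 15.7% (272), against 22.6% of all events. For JUND, 27.2% of the events (295 of 1084) were at least 2-fold higher and 16.3% (177) at least 2-fold lower, against 18.7% and 25.0% of all JUND events. Because the chromosome was chosen on this contrast, these differences from the background are a description only. The split moved with the scaling. Where control reads set the scale, which shifts the median of the other chromosomes to -0.37 for FRA2 and -0.80 for JUND, 24.8% of the region's FRA2 events were higher and 22.2% lower, and 16.7% of its JUND events were higher and 31.5% lower. The gap between the region and the other chromosomes is not touched by a scaling: 0.38 for FRA2 and 0.39 for JUND, both as differences of median log2 folds.

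The shift ran through the whole distribution of folds. For FRA2 the 10th percentile of log2 folds was -1.45 in the region and -1.81 on the other chromosomes, and the 90th percentile 2.46 and 1.97. The 25th percentile was -0.49 and -0.89, and the 75th 1.34 and 0.96. For JUND the 10th percentile was -1.43 in the region and -1.90 elsewhere, and the 90th 2.31 and 1.69. Events in both directions were common within the region, and the 2 distributions overlapped over most of their range.

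**Figure D1:**
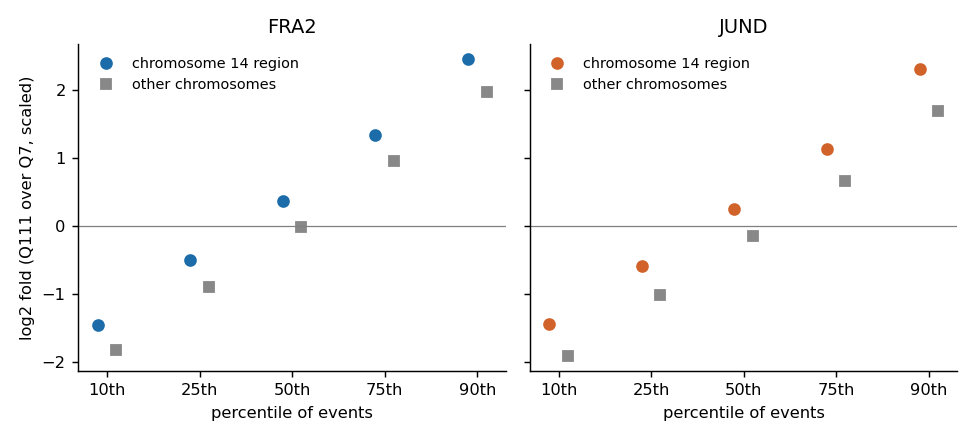
Percentiles of event log2 folds (Q111 over Q7, scaled; vertical axis) for FRA2 and JUND, with events of the chromosome 14 region as coloured circles and events of the other chromosomes as grey squares. All 5 percentiles of both proteins are higher in the region, from -1.45 against -1.81 at the FRA2 10th percentile to 2.31 against 1.69 at the JUND 90th.

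Over the 20 chromosomes other than the mitochondrial one, whole chromosome 14 had the highest median for FRA2 (0.34, interval 0.25 to 0.39, 1926 events) and for JUND (0.21, 0.13 to 0.30, 1195 events), as the choice of the region requires. The next for FRA2 was chromosome 6 (0.22, 0.18 to 0.28), followed by chromosome 11 (0.16, 0.11 to 0.21). For JUND these had medians of 0.05 (-0.01 to 0.09) on chromosome 6 and 0.08 (0.03 to 0.12) on chromosome 11. The intervals of chromosomes 14 and 6 overlap for FRA2. Control reads did not follow this order. The log2 ratio of summed control reads was 0.42 on chromosome 14 in the FRA2 table, rank 10 of 20, and 0.68 in the JUND table, rank 14 of 20. Chromosome 6 had nearly the same ratios (0.42 and 0.69), and chromosome 11 had the highest (0.63 and 0.99).

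**Figure D2:**
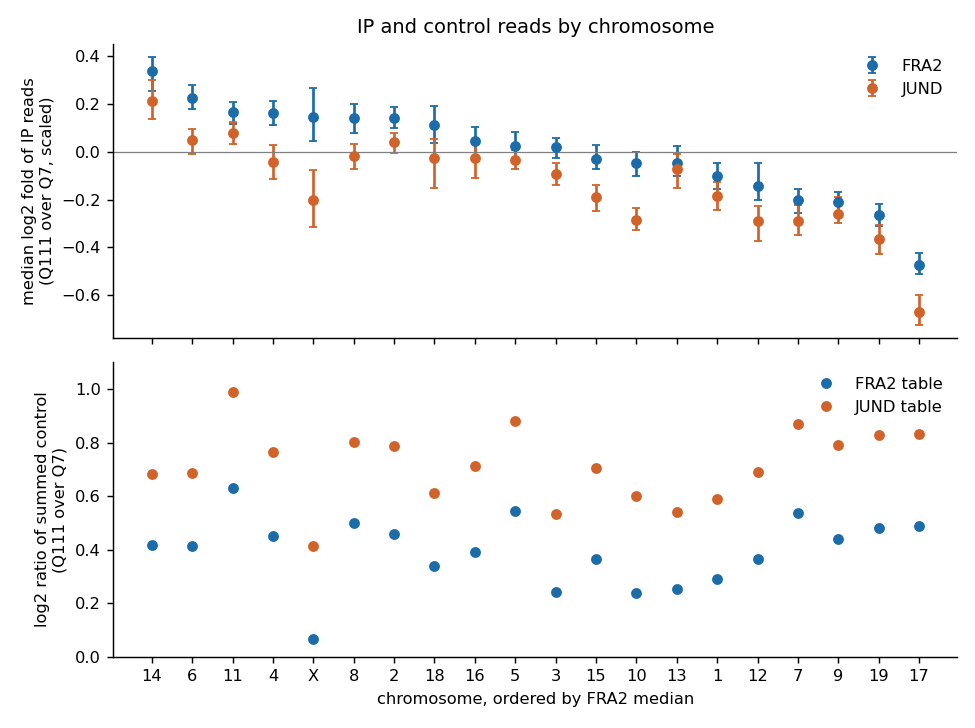
Upper panel, median log2 fold of IP reads (Q111 over Q7, scaled) per chromosome with the 95% interval of the median, for FRA2 (blue) and JUND (orange). Lower panel, log2 ratio of summed control reads at the same events. Chromosome 14, at the left, has the highest medians (0.34 and 0.21) and control ratios of 0.42 and 0.68 that lie among those of the other chromosomes.

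Control reads, which were not used to choose the region, are listed as multiples of a factor that differs between libraries, so the lines are not on a shared scale and each ratio is set against that of the other chromosomes. Relative to the other chromosomes the region's log2 control ratio was 0.01 in the FRA2 table (interval -0.04 to 0.06) and -0.04 in the JUND table (-0.10 to 0.02). Both intervals include 0. The intervals take the summed, scaled control signal as if it were reads, and the ratio elsewhere as fixed, so they are only approximate. At matched sites the 2 tables often listed similar control values. At FRA2 position 69337033 these were 2.1 and 2.2 in Q111 and 1.2 in both in Q7, though at 22723156 they were 7.2 and 9.7 in Q111. The tables may hold the same control reads, so their ratios may not be separate observations. At SOX2 events the mean control was 3.12 in the region and 4.34 elsewhere. No event of the region had 40 control reads or more in either line, and 19 events of the other chromosomes did in each of the 2 AP-1 tables. The control ratio moved with the fold of the event: relative to the ratio over all events of the other chromosomes, FRA2 events of the region at least 2-fold higher in Q111 had a log2 control ratio of -0.23, those within 2-fold 0.12 and those at least 2-fold lower 0.02. On the other chromosomes these were -0.38, 0.13 and 0.00. For JUND they were -0.27, 0.07 and -0.11 in the region, and -0.55, 0.18 and -0.14 elsewhere. What part this plays in the folds was not tested.

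Along the chromosome the shift was uneven. FRA2 events fell into 22 bins of 5 Mb, of which 17 held at least 20 events, and the median log2 fold lay above that of the other chromosomes in 16 of these 17. JUND had 16 bins with at least 20 events, and all 16 lay above the JUND median of the other chromosomes (-0.14). The intervals of several of these bins include the median of the other chromosomes. Examples are 10 to 15 Mb for FRA2 (-1.21 to 0.34) and for JUND (-1.45 to 0.46), and 65 to 70 Mb for JUND (-0.54 to 0.38). At 10 to 15 Mb, 9 FRA2 events were at least 2-fold higher and 18 at least 2-fold lower, and for JUND 6 and 11. Bins of the other chromosomes were not counted in this way, and the chromosome was picked on this contrast. With 0 in place of that median, 16 FRA2 bins and 13 JUND bins were above it. No 5 Mb bin with 20 events reached a median of 2-fold in either direction.

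The FRA2 bin medians ran from -0.05 (5 to 10 Mb, 51 events) to 0.997 (100 to 105 Mb, 59 events). In the highest bin there were 2948.6 FRA2 reads in Q111 and 1882.1 in Q7, with 29 events at least 2-fold higher and 3 at least 2-fold lower. The bin of 35 to 40 Mb followed with 0.94 (2435.6 reads in Q111 and 1657.7 in Q7, 47 events), then 15 to 20 Mb with 0.79 (4331.1 and 2660.0 reads, 71 events) and 60 to 65 Mb with 0.76 (8560.8 and 5520.3 reads, 154 events). Medians between 0.01 and 0.13 were found at 10 to 15 Mb (0.08, 49 events), 25 to 30 Mb (0.01, 139 events), 45 to 50 Mb (0.13, 160 events) and 65 to 70 Mb (0.05, 168 events). Bins with high and low medians lay side by side along the chromosome. The remaining bins with 20 events lay between 0.21 and 0.66.

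JUND bin medians ran from -0.07 (35 to 40 Mb, 27 events, and 75 to 80 Mb, 105 events) to 0.81 (50 to 55 Mb, 29 events). The bin of 50 to 55 Mb held 1006.1 JUND reads in Q111 and 593.6 in Q7, and that of 55 to 60 Mb, with a median of 0.74, held 2024.0 in Q111 and 1285.9 in Q7. At 35 to 40 Mb the median was 0.94 for FRA2 (0.12 to 1.24) and -0.07 for JUND (-0.37 to 0.87), with intervals that overlap. Over the 16 bins the medians of the 2 proteins gave r = 0.35 (Pearson) and rho = 0.40 (Spearman). When events near the other protein were taken alone, at least 20 pairs a bin, the same 16 bins had an r of 0.78 and a rho of 0.83, and the medians at 35 to 40 Mb were 0.31 for FRA2 and 0.03 for JUND (23 pairs). Bins share libraries and their neighbours, so these are descriptions.

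Control reads also varied between bins. Relative to the other chromosomes the control log2 ratio of the FRA2 table was highest at 25 to 30 Mb (0.46), where the FRA2 median was 0.01, and lowest at 95 to 100 Mb (-0.55), where it was 0.46. In the bin with the highest FRA2 median, 100 to 105 Mb, it was -0.25, with a mean control of 2.95 reads in Q111 and 2.64 in Q7. In the JUND table it was highest at 50 to 55 Mb (0.48), which was also the bin of the highest JUND median. Over 16 bins, r between the control ratio and the IP median was -0.03 for FRA2 (rho 0.04) and 0.36 for JUND (rho 0.29), and r between the control ratios of the 2 tables was 0.79. As the 2 tables may hold the same control reads, the last value is not read as agreement between separate measurements.

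**Figure D3:**
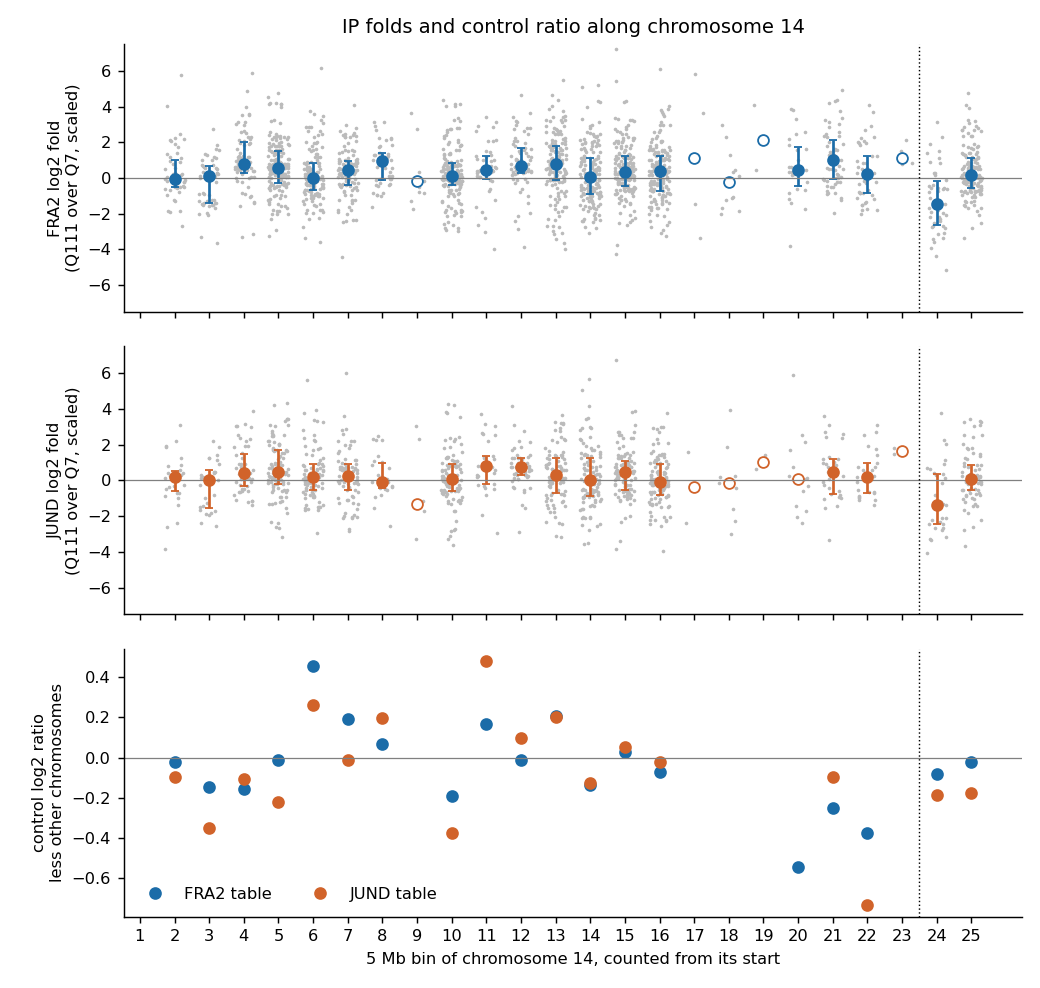
Log2 folds of events (grey dots) in 5 Mb bins of chromosome 14, with the bin median (circle) and the 25th to 75th percentile (bar) for FRA2 (top) and JUND (middle). Open circles are bins under 20 events, and the lowest panel gives the log2 control ratio less that of the other chromosomes for bins with at least 20 events. The dotted line marks the upper limit of the region: 16 of 17 FRA2 bins to its left lie above the median of the other chromosomes, and the bin just to its right has a median of -1.45.

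At 1 Mb resolution 38 of the 90 bins that held FRA2 events had 20 or more, and 28 of these 38 had a median above that of the other chromosomes. For JUND 21 of 24 such bins did. The highest FRA2 bin was 74 to 75 Mb, with a median of 1.68, 926 reads in Q111 and 395 in Q7 over 22 events. It had no event near SOX2. The bins of 78 to 79 Mb (1.34, 1394 reads in Q111 and 870.9 in Q7, 25 events) and 103 to 104 Mb (1.26, 1250.8 and 711.6, 21 events) followed. The lowest were 71 to 72 Mb (-0.32, 1561 reads in Q111 and 1507 in Q7), 102 to 103 Mb (-0.17, 844 and 755.9) and 65 to 66 Mb (-0.14, 1759.7 and 1712.3). The adjacent megabases from 102 to 104 Mb held a median among the 3 lowest and a median among the 3 highest, with intervals that overlap (-0.53 to 1.26 and 0.50 to 2.36). JUND had under 20 events in all but 1 of these 6 bins. Its median there, at 65 to 66 Mb, was -0.05 over 25 events.

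Runs of neighbouring events that all differed in the same direction were looked for next, taking 5 or more consecutive events at least 2-fold apart. No limit was set on the spacing within a run. A higher FRA2 run of 5 events spanned 6273 kb (chr14:92716313-98989411), and a higher JUND run of 6 events spanned 1265 kb. For FRA2 there were 16 runs higher in Q111, holding 5.75% of the region's events, and 1 run lower, holding 0.29%. On the other chromosomes 5.37% of events lay in higher runs and 3.22% in lower ones. For JUND there were 8 higher runs with 4.52% of events and no lower run, against 3.19% and 3.82% elsewhere. The share in higher FRA2 runs was thus close to that of the other chromosomes, and the region differed more in how few events lay in lower runs.

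The run with the most FRA2 events, 10, spanned chr14:49740691-50115668, with 671 reads in Q111 and 161 in Q7 and a median log2 fold of 2.24. A JUND run of 8 events overlapped it (chr14:49791804-50427212), with 306 reads in Q111 and 82 in Q7. A FRA2 run of 9 events at chr14:67821919-68192735 summed to 554 reads in Q111 and 100 in Q7, and 7 events at chr14:17495886-17759840 to 257 in Q111 and 31 in Q7. The last overlapped a JUND run of 5 events with 162 reads in Q111 and 19 in Q7. The single lower FRA2 run, chr14:14426767-14739133, held 47 reads in Q111 and 171 in Q7 over 5 events, 3 of them near a SOX2 event.

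Folds of neighbouring events were compared next. FRA2 neighbours in the region differed by a median of 1.15 in log2 fold, against 1.02 on the other chromosomes, and 61.8% against 61.9% had the same sign. Within 1 kb the difference was 0.70 in the region and 0.65 elsewhere, with 69.1% and 73.8% of the same sign, and over 100 kb apart it was 1.45 in both. JUND neighbours differed by a median of 1.13 in the region and 0.99 elsewhere, and 57.7% and 60.4% had the same sign. Within 1 kb 63.3% of JUND neighbours in the region and 69.2% elsewhere had the same sign, and over 100 kb apart they differed by 1.53 and 1.32. By most of these measures neighbours in the region were somewhat less alike, but they were also farther apart. Their median spacing was 14.5 kb against 11.15 kb elsewhere for FRA2, and 24.6 kb against 13.5 kb for JUND. Some values went the other way: over 100 kb apart, 64.2% of FRA2 neighbours in the region and 57.7% elsewhere had the same sign.

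Events of the region were unevenly placed. Of the FRA2 events, 1578 lay below 80 Mb and 160 above. This is 22.1 per Mb between the first event and 80 Mb, and 4.57 per Mb from there to the upper limit, a span whose last 3.31 Mb held no event. For JUND these densities were 14 and 2.43, and for SOX2 7.18 and 1.03. The first event of any table was at position 8641303. The longest gap between neighbouring FRA2 events inside the region was 3.12 Mb (chr14:93963797-97081138). The bins between 80 and 95 Mb held between 3 and 14 FRA2 events each, and their medians are not read.

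The upper limit of the region lay in an empty stretch. The last FRA2 event inside it was at position 111685401 and the first outside at 117311216, 5.63 Mb apart. The last 3 FRA2 events inside had 27, 22 and 51 reads in Q111 and 9, 12 and 27 in Q7, with log2 folds of 1.49, 0.80 and 0.86. The first 3 outside had 39, 47 and 28 reads in Q111 and 34, 69 and 125 in Q7, with log2 folds of 0.15, -0.60 and -2.18. For JUND the last 3 inside had log2 folds of 0.78, 1.47 and 1.80, and the first 3 outside 1.14, 0.92 and -2.64. The last SOX2 events inside, at positions 106250751, 106290428 and 110872096, had 39, 26 and 29 reads in Q7, and the first 3 outside 27, 25 and 35. Between the limit and 120 Mb the 46 FRA2 events had a median of -1.45 (-2.21 to -0.58) and the 32 JUND events one of -1.36 (-2.36 to 0.31), with 1486 FRA2 reads in Q111 and 2580.9 in Q7. Relative to the other chromosomes the log2 control ratio there was -0.08 in the FRA2 table and -0.19 in the JUND table. From 120 Mb on, the FRA2 median was 0.17 (-0.03 to 0.50) over 142 events and the JUND median 0.09 (-0.09 to 0.24) over 79 events, with intervals that include 0.

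The deposited marks of presence depend on the same reads as the folds, so the shares are a description. Of the region's FRA2 events, 33.6% were marked present in Q111 alone, against 25.5% elsewhere, and 20.7% in Q7 alone, against 26.9%. Events marked in both lines made up 45.7%, against 47.7%. For JUND 35.8% were marked in Q111 alone, against 24.1%, and 26.5% in Q7 alone, against 38.7%. Among events marked in both lines the median log2 fold was 0.20 (0.16 to 0.24) in the region and -0.00 elsewhere for FRA2, and 0.11 (0.06 to 0.17) and -0.00 for JUND. A mark in both lines limits how large a fold can be, so these medians are not set against those over all events.

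The folds were also set against the number of reads, with the table's events in 4 groups of about equal size. Among FRA2 events of the lowest group (median 34 reads over both lines) the median log2 fold was 0.88 in the region and -0.34 elsewhere. In the highest group (median 192.9 reads) it was 0.25 (0.20 to 0.35) and -0.01. For JUND the lowest group had medians of 1.15 and -0.74, and the highest 0.13 (0.06 to 0.25) and -0.09. In the lowest group folds were widely split, with FRA2 quartiles of -1.03 and 2.05 in the region and -1.45 and 1.48 elsewhere, and the log2 fold of summed reads was 0.43 in the region and -0.04 elsewhere for FRA2, and 0.55 and -0.23 for JUND. In the highest group it was 0.28 and 0.01 for FRA2, and 0.18 and -0.12 for JUND. Every event of the region was marked present in at least 1 line.

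FRA2 and JUND events of the region were then matched. Each was the other's nearest within 100 bp at 875 pairs, a median of 13 bp apart. At these pairs FRA2 had a median log2 fold of 0.28 (0.22 to 0.37) and JUND one of 0.15 (0.08 to 0.27). Both proteins were at least 2-fold higher in Q111 at 196 pairs (22.4%), where 15.9% of all pairs were, and both at least 2-fold lower at 108 (12.3%), where 18.2% were. No pair of the region, and 6 of 34214 elsewhere, were at least 2-fold changed in opposite directions. The sign was the same at 83.8% of pairs in the region and 84.9% elsewhere, and in the region across pairs the folds of the 2 proteins gave r = 0.88 (Pearson) and rho = 0.89 (Spearman), and elsewhere both were 0.89. Pairs share cells and sites and are not replicates. FRA2 events of the region with no JUND event within 100 bp had a median of 0.50 (854 events), and those with one 0.28 (884 events). On the other chromosomes these medians were 0.13 and -0.07, a gap of about the same size. JUND events of the region with no FRA2 event within 100 bp had a median of 0.58 (208 events), and those with one 0.15 (876 events). For JUND the medians elsewhere were -0.09 and -0.16, a smaller gap than in the region. Events of the region without the other protein also had fewer reads over both lines. Their median was 44.6 reads against 102 with it for FRA2, and 42 against 55 for JUND. What part this plays in the gaps was not tested.

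**Figure D4:**
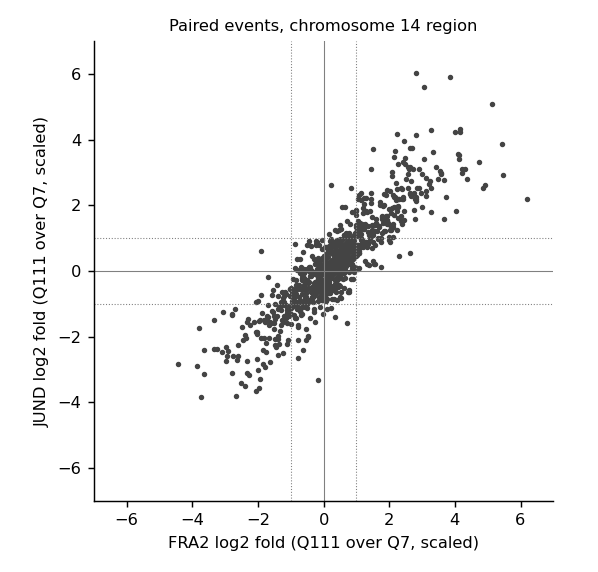
Log2 fold (Q111 over Q7, scaled) of FRA2 (horizontal) against JUND (vertical) at the 875 matched pairs of the chromosome 14 region, 1 dot per pair. Dotted lines mark 2-fold: 196 pairs lie beyond it in the upper right, 108 in the lower left and none in the other corners.

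Among pairs higher in Q111, those whose intervals lay farthest from 1 in both proteins were at positions 69337033, 73286817 and 22723156 (FRA2). At chromosome 14 position 69337033 the FRA2 read count was 161 in Q111 and 4 in Q7 (34.8-fold, 14.9 to 144.8), and that of JUND, 49 bp away, was 53 in Q111 and 1 in Q7 (33.9-fold, 8.67 to 2028). At 73286817 it was 287 in Q111 and 6 in Q7 for FRA2 (42.8-fold, 21.0 to 127.3), and 130.4 in Q111 and 8 in Q7 for JUND 11 bp away (14.6-fold, 7.62 to 36.6). Control reads of the FRA2 table at this site were 0 in Q111 and 3.6 in Q7. At 22723156 the counts were 90 in Q111 and 5 in Q7 for FRA2, and 88 in Q111 and 4 in Q7 for JUND 25 bp away.

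In the other direction, the FRA2 count at position 73653435 was 8 in Q111 and 108.9 in Q7, a 13.3-fold lower level in Q111 (6.89 to 33.4), and the JUND count 33 bp away was 4 in Q111 and 61.2 in Q7. At 55674171 it was 7 in Q111 and 105 in Q7 for FRA2, and 8 in Q111 and 60 in Q7 for JUND. At 46792800 it was 23.9 in Q111 and 145.7 in Q7 for FRA2, and 18.7 in Q111 and 119.3 in Q7 for JUND. The sites at 73286817 and 73653435, with opposite folds, lie within the same megabase.

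Other single events differed as much. FRA2 at position 70327445 was covered by 77 reads in Q111 and by 0 in Q7. Against a floor of 3 reads this is 24.9-fold higher, but the counting interval of the fold starts lower, at 19.7. The control there held 6.9 reads in Q111 and 4.8 in Q7. FRA2 at 64196003 was covered by 160 reads in Q111 and by 3 in Q7 (44.4-fold, 17.4 to 253.1). JUND at 30496550 was covered by 34 reads in Q111 and by 0 in Q7, which against that floor is 10.8-fold higher, with an interval that starts at 8.30. FRA2 at 34172262 was covered by 3 reads in Q111 and by 73 in Q7, a 21.7-fold lower level in Q111 (8.26 to 124.6), and JUND at 46540529 by 4 in Q111 and by 53 in Q7. The 5 FRA2 and 5 JUND events farthest in the direction of Q111 had no SOX2 event within 1 kb, and the 5 of each farthest in the other direction all had one. Over all events past 2-fold the split was less sharp: 34 of 551 higher and 147 of 272 lower FRA2 events of the region had one, and 27 of 295 higher and 128 of 177 lower JUND events. On the other chromosomes 1182 of 15058 higher and 7555 of 14266 lower FRA2 events had one, a similar split. For JUND these were 1180 of 8398 higher and 7800 of 11429 lower events. SOX2 was called in Q7 alone, so events near it may lean towards sites bound in Q7, which was not tested.

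The events with the most reads over both lines, a ranking that favours events high in both, had folds below 2 in either direction. The FRA2 count at position 71503948 was 544 in Q111 and 543 in Q7, and at 64987271 it was 415 in each, with log2 folds of -0.04 and -0.05. At 47256199 there were 567 in Q111 and 461 in Q7 (1.19-fold, 1.05 to 1.35), at 32828496 524 and 396 (1.28-fold, 1.12 to 1.46), and at 32581928 574 and 387 (1.44-fold, 1.26 to 1.64). For JUND the event with the most reads, at position 32828509, counted 254 in Q111 and 147 in Q7 (1.64-fold, 1.34 to 2.03). JUND at 64987278 had 127 in Q111 and 173 in Q7, a log2 fold of -0.52. None of the 10 strongest AP-1 events reached 2-fold, and all 10 had a SOX2 event within 1 kb. They are not 10 separate sites, since FRA2 and JUND events coincide at 71503948, 47256199, 32828496 and 64987271. In the highest of the 4 read groups, 16.7% of the region's FRA2 events were at least 2-fold higher and 7.14% lower, against 15.7% and 14.7% elsewhere. For JUND these were 13.2% and 6.81%, against 11.7% and 17.8%. The share near SOX2 in that group is not given here.

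SOX2 was measured in Q7 alone and played no part in choosing the region. The table lists 31.5 SOX2 events per 100 FRA2 events in the region and 41.2 per 100 on the other chromosomes. Of the 548 SOX2 events, 386 had FRA2, JUND or both within 100 bp (70.4%, Wilson interval 66.5 to 74.1%), against 69.8% elsewhere. FRA2 was near 61.5% (57.4 to 65.5%), against 56.3% elsewhere, and JUND near 59.3% (55.1 to 63.3%), against 62.0%. Of the region's FRA2 events 29.5% had a SOX2 event within 1 kb, against 35.9% elsewhere, and of its JUND events 41.7%, against 50.6%. Chromosome 14 as a whole ranked 18 of 20 by this share in both tables.

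Within both classes the region's folds were above those of the other chromosomes. FRA2 events within 1 kb of SOX2 had a median log2 fold of -0.28 (-0.41 to -0.17) in the region and -0.50 elsewhere. Events with no SOX2 event that near had 0.75 (0.64 to 0.83) in the region and 0.41 elsewhere. For JUND the medians near SOX2 were -0.33 (-0.49 to -0.18) and -0.50, and away from it 0.79 (0.71 to 0.90) and 0.33. Near SOX2 the region's median was therefore below 0 for both proteins, and away from it 42.2% of FRA2 and 42.4% of JUND events were at least 2-fold higher in Q111, where elsewhere 34.5% of FRA2 and 32.2% of JUND events were. Because SOX2 was called in Q7 alone, the class near it may lean towards sites bound in Q7. What part this plays in the sign of the medians was not tested.

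**Figure D5:**
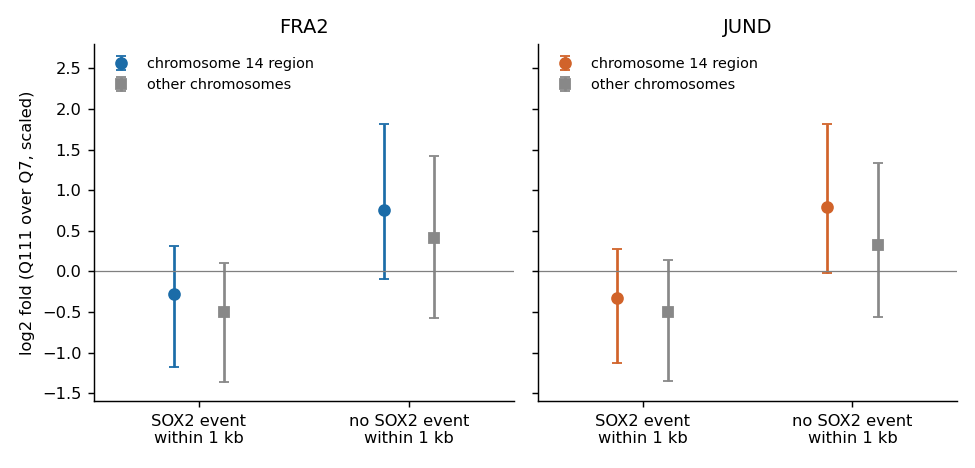
Median log2 fold (Q111 over Q7, scaled) with the 25th to 75th percentile for events with and without a SOX2 event within 1 kb, in the chromosome 14 region (coloured circles) and on the other chromosomes (grey squares), for FRA2 and JUND. Medians near SOX2 lie below 0 (-0.28 and -0.33 in the region) and those away from it above 0 (0.75 and 0.79), and the region is higher in each of the 4 comparisons.

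The strongest SOX2 event of the region, at chromosome 14 position 46792765 with 509.5 reads and 6.9 control reads, lay 35 bp from the FRA2 event and 56 bp from the JUND event that were lower in Q111 at that site. The next, at position 73653429 with 414 SOX2 reads, lay 6 bp from the FRA2 event with 8 reads in Q111 and 108.9 in Q7. The AP-1 events beside the other 3 strongest differed less. Beside position 32483106 (260 SOX2 reads) the FRA2 count was 131 in Q111 and 172 in Q7, and beside 23406681 (233.5 SOX2 reads) it was 61 in Q111 and 98 in Q7. Beside 32828558 (232 SOX2 reads) it was 524 in Q111 and 396 in Q7. Of the 5 strongest SOX2 events, 4 had AP-1 neighbours with fewer reads in Q111. Lower folds were the more common case near SOX2 in general. Among all events of the region within 1 kb of SOX2, 38.2% of FRA2 and 37.2% of JUND events had a log2 fold above 0. On the other chromosomes these shares were 29.3% and 30.8%.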

How the data were processed

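The submitters' processing notes name the aligner Bowtie 0.12.7 and the build mm9. The deposited tables, which carry the name GPS, list 1 binding event per line. The sources used here give neither the version of the caller nor its settings. IP columns hold expected counts (deposited, unscaled, 78.0% to 89.6% of values whole). Control columns hold a deposited signal, control reads times a factor per library, judged from the values. Their library of origin is not named in the headers; among antibodies in the labels, IgG alone is a control. Present marks are the authors' (deposited as other values, 0 or 1). There were 27 value columns not used. Totals over all events were 3498922 (Q111) and 3340554 (Q7) FRA2 reads, 1609483 (Q111) and 1660158 (Q7) JUND reads and 1193914 SOX2 reads; these are sums over events, not library sizes.

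Log2 folds took a pseudocount of 0.5 and were centred on events present in both lines (shifts of 0.05 for FRA2 and 0.07 for JUND). All events passed a minimum of 20 reads. At 95%, fold intervals are Clopper-Pearson, those of shares are Wilson and those of medians come from binomial order statistics. PCR reads are not independent molecules, so they cover counting error only. No test was run: there is 1 pooled sample a group. Named events follow a fixed rule: most reads, intervals farthest from 1, pairs, and both sides of the upper limit. Members and lists were chosen with earlier results of these data known. No mm9 genome or annotation was used, so no gene loci and no sequences are given; all 22 genes listed for this are on chromosome 14 in the RefSeq table of GRCm38.p6. The scripts were tested on simulated data (Python 3.11.15, scipy 1.17.1).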

Additional observations from a re-analysis of the deposited data

How the results depend on the processing

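No paired analysis was possible because each group is 1 pooled sample, and for the same reason no replicate could be left out. Of 80 alternatives 50 stayed within the interval of the reported value (counts within 1.5 times). Scaling by control reads gave a FRA2 median of 0.0115 and turned the JUND median to -0.41, with 24.8% and 16.7% of events higher (17.7% and 10.2% elsewhere); it moves every event of a table alike. Scaling by IP totals gave JUND 0.37 and 31.0% (20.4% elsewhere). With at least 40 reads an event, the medians were 0.29 (FRA2) and 0.11 (JUND), against 0.00 and -0.09 on other chromosomes, with 26.5% and 16.9% higher (20.8% and 14.3% elsewhere). Events present in both lines gave 0.20 and 0.11, with 11.7% and 6.11% higher, close to the 10.8% and 5.47% elsewhere, and 8 of 10 JUND bins above the other chromosomes. Subtracting control gave 34.3% and 32.6% higher (27.4% and 22.3% elsewhere), a pseudocount of 5 reads 27.9% and 23.3% (20.9% and 15.4%), a limit of 1.5-fold 42.8% and 40.1% (33.0% and 26.9% elsewhere), and of 4-fold 15.5% and 13.1% (9.60% and 7.27%). Bins of 1 Mb gave 28 of 38 for FRA2. Control ratios not taken relative to other chromosomes were 0.42 and 0.70. SOX2 events near AP-1 were 54.4% within 50 bp, 77.6% within 200 bp, 84.7% within 1 kb and 81.0% among those with at least 40 reads. With each 5 Mb bin left out in turn, an alternative chosen after seeing the data, the medians stayed between 0.34 and 0.40 (FRA2) and between 0.21 and 0.29 (JUND). The cause of these changes was not tested. With a median of 59 FRA2 and 51 JUND reads per event over both lines, single events show only large folds.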
